A study of Mus musculus with 4 samples.

Results

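Islet T cells whose alpha chain joined a TRAV16 family segment to TRAJ42 made up 296 of 11035 cells with a paired receptor (2.68%). They were chosen by the alpha segments alone. A cell counted when its barcode was called as a cell, when it carried exactly 1 productive beta chain (TRB) and at least 1 productive alpha chain (TRA), and when the alpha chain with the most unique molecular identifiers (UMIs, tags that mark single captured RNA molecules) had TRAV16 and TRAJ42. The choice used no beta chain, no junction sequence and no clone size.

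The data were single-cell T-cell receptor sequences from the pancreatic islets of NOD mice, which become diabetic through an autoimmune attack on their beta cells, and from Tet2KO NOD mice. The latter were Tet2-/- animals backcrossed to NOD for over 14 generations, so both groups share the NOD background. Tet2 is an enzyme that oxidises methylcytosine in DNA, and the labels give the Tet2-/- allele with no promoter or cell type that would restrict it. There were 2 libraries of each genotype, and each pooled the islets of 4 to 6 mice. The design text puts the mice at 10 to 13 weeks of age, and the extraction protocol at 10 to 13 weeks post BTM, an abbreviation it leaves unexplained. Since bone marrow donors are mentioned too, a transplant before the islets were taken cannot be told from these labels.

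The alpha and beta chains of a T-cell receptor are each assembled from gene segments, V and J for alpha and V, D and J for beta. The joint between them encodes the third complementarity-determining region (CDR3), the loop that usually touches the presented peptide, and enzymes can trim the ends and add bases of no template (N bases) there. TRAV16 with TRAJ42 alpha chains are known in NOD mice from CD8 T cells that recognise a peptide of IGRP, the islet-specific glucose-6-phosphatase-related protein made from G6pc2 in beta cells. The tables hold receptor sequences only. Whether these cells bind IGRP or carry CD8 was therefore not measurable, and they are called here by their segments.

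The libraries are called NOD 1 and NOD 2, then Tet2KO NOD 1 and Tet2KO NOD 2, and 4 values in a row follow that order. They held 5564, 2475, 1604 and 1392 paired cells, from 85137263 to 220516119 reads. NKT-type receptors (TRAV11 family with TRAJ18) were found in 3 to 11 cells a library, MAIT-type receptors (TRAV1 with TRAJ33) in 0 to 2, and productive gamma or delta chains in 0. Among called barcodes 81 occurred in over 1 library, and 4 TRAV16-TRAJ42 cells lay on them.

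All 296 cells were named TRAV16N with TRAJ42. In the GENCODE annotation of GRCm38 the Traj42 segment lies at chr14:54175773-54175836 on the plus strand. Trav16n lies at chr14:53351028-53351621, and the near-identical copies Trav16d-dv11 and Trav16 lie at chr14:53047287-53047821 and chr14:53743104-53743705, on the same strand. Over 273 bases the contigs carried 3 versions of the V segment, in 181, 104 and 11 cells. Their mismatches to Trav16n numbered 4, 2 and 6, to Trav16d-dv11 1, 1 and 5, and to Trav16 6, 4 and 8. Which copy of the family a contig came from is therefore uncertain.

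The CDR3 sequences that carry the pattern are shown first. The germline ends of the 2 segments, read from the annotated transcripts, are printed to show how little lies between them in the commonest loops.

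Trav16n from the conserved cysteine to its 3′ end: tgtgctatgagagaggg

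Traj42 from its 5′ end to the conserved phenylalanine: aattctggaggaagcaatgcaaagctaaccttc

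The alpha junctions below are those of the 6 commonest loops by clonotype, with ties ordered by cells and then by name, and of the loop of the largest clone. Each is shown in its version with the most cells. The EGG loop has 2 versions of 2 cells each, of which the one with no N base is shown and the other has 1. Capitals mark the bases counted as N bases, those that match neither germline end directly. Bases that are the reverse complement of an adjoining germline end were not set apart, and count as N bases. The germline here is GRCm38, the C57BL/6 genome, and the NOD segments were not used here. Every one of these loops begins with CAMR and ends with GSNAKLTF, and each is named by the residue or residues that come right after CAMR.

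Aspartate loop, 15 residues: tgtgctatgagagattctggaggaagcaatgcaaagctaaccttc

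Asparagine loop, 15 residues: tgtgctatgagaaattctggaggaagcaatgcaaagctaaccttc

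Glutamate loop, 15 residues: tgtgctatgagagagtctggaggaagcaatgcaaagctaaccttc

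EGR loop, 15 residues: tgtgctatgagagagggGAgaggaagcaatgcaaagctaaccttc

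Leucine loop, 15 residues: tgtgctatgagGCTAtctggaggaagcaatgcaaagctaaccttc

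EGG loop, 15 residues: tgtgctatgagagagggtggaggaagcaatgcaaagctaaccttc

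EGI loop, 18 residues: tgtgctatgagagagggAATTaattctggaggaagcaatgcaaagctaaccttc

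The first 3 of these, and the EGG loop, hold no capitals. A clonotype was a set of cells of 1 library with the same V, J and CDR3 nucleotides of both chains, which gave 57 clonotypes (56 distinct). They carried 22 CDR3 alpha amino acid sequences in 29 nucleotide versions.

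The aspartate loop was in 22 clonotypes and 106 cells, with 10, 5, 3 and 4 clonotypes in the 2 NOD and then the 2 Tet2KO NOD libraries. It was paired with 19 different CDR3 beta loops of 5 TRBV segments. It had 3 nucleotide versions. The one printed above, which needs no N base, was in 14 clonotypes of 3 libraries and 56 cells. The version below, with 2 bases counted as N at the same place, was in 7 clonotypes of 3 libraries and 47 cells. The versions differ only at the first capital, a G where GRCm38 has A. Every TRAV16-TRAJ42 junction that matched just 11 bases of the V end had this G next, in other loops too. Whether that G belongs to the NOD segment or to another copy was not tested, so different joints are not shown.

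Aspartate loop, second version: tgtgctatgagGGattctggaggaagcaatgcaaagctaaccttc

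The asparagine loop was in 6 clonotypes (17 cells, NOD 1 and NOD 2), and the glutamate loop was in 4 clonotypes, all of NOD 1, which held 59 cells. Of these 4, the clonotype with TRBV12-2+TRBV13-2 was 1 cell. Its beta nucleotides were also in 3 NOD 1 cells whose only alpha chain was TRAV5-4 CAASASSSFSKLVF, so its pairing is uncertain. The EGR loop was in 2 clonotypes of 2 and 14 cells, in NOD 1 and Tet2KO NOD 2. The leucine loop was in 2 clonotypes of NOD 2 (5 cells), and the EGG loop in 2 clonotypes of 2 cells each, in NOD 1 and Tet2KO NOD 1. Loops with valine or alanine at position 5, and a loop of 14 residues, also had 2 clonotypes each.

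Position 5, the first after CAMR, was the variable one in most clonotypes. Loops of 15 residues that kept CAMR before it and SGGSNAKLTF after it covered 40 of 57 clonotypes and 221 of 296 cells, and are called the short motif here. The residue at position 5 was aspartate in 22 of these clonotypes, asparagine in 6 and glutamate in 4. Alanine, leucine and valine were found in 2 each, and histidine and isoleucine in 1 each. By library the short motif covered 22 of 29, 8 of 13, 5 of 8 and 5 of 7 clonotypes, and 150 of 161, 50 of 95, 9 of 13 and 12 of 27 cells. It was thus the majority of clonotypes in all 4 libraries, while in Tet2KO NOD 2 it held the minority of cells. The motif was written down after the sequences were seen, and no test was made on it.

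The CDR3 alpha loop was long and narrow in its spread. Of the 57 clonotypes 44 had 15 residues (77.2%), against 15.8% of the 7122 other clonotypes. The mean length was 15.2, 15.7, 15.5 and 15.4 residues in the 2 NOD and then the 2 Tet2KO NOD libraries, against 13.6, 13.7, 13.7 and 13.6 in the others. The difference averaged 1.83 ± 0.18 residues (SD, n = 4 libraries) and was above 0 in 4 of 4 libraries. The segments that chose the cells fix part of this length, so this is a description. Clonotypes of TRAV16 with another TRAJ averaged 14.6 residues and those of TRAJ42 with another TRAV 14.3.

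**Figure D1:**
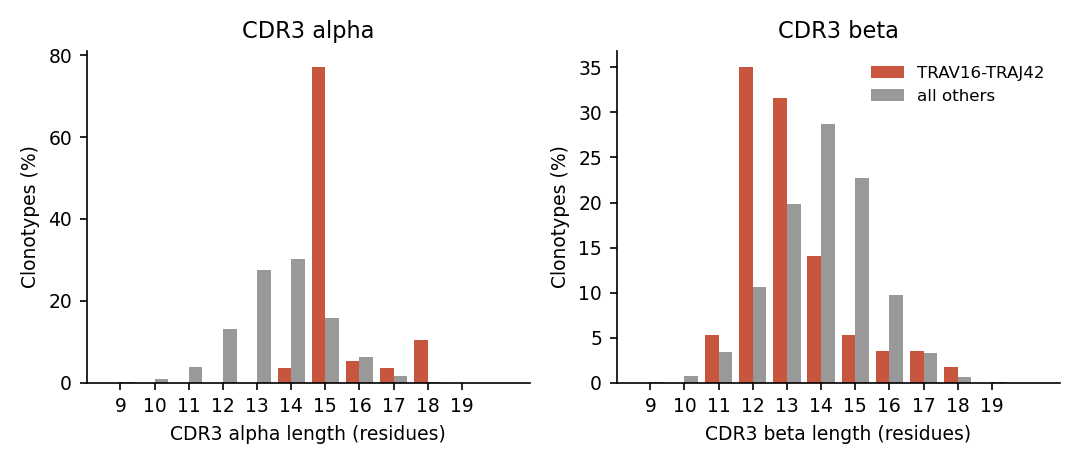
Share of clonotypes (%) at each CDR3 length (residues), for alpha on the left and beta on the right, over all 4 libraries, with TRAV16-TRAJ42 clonotypes in red and all others in grey. The alpha loops sit at 15 residues in 77.2% of TRAV16-TRAJ42 clonotypes, and their beta loops peak at 12 residues where the others peak at 14.

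The joints held few N bases. The mean was 1.53 per TRAV16-TRAJ42 clonotype and 5.41 per other clonotype. It was 4.02 for TRAV16 with another TRAJ and 4.46 for TRAJ42 with another TRAV. Joints with 0 N bases were 51.7%, 46.2%, 12.5% and 42.9% of the clonotypes in the 2 NOD and then the 2 Tet2KO NOD libraries. Among all others they were between 9.82% and 10.2%. Tet2KO NOD 1, where 1 of 8 clonotypes had such a joint, was the low one. In that library TRAV16 with another TRAJ had 13.2% and TRAJ42 with another TRAV 11.5%, so by this count the 12.5% did not stand apart. The 3 aspartate-loop clonotypes of Tet2KO NOD 1 carried the second version, whose 2 N bases depend on the G described above. This version was also in NOD 1 and Tet2KO NOD 2. With that G in the NOD germline these joints would have 0 N bases, which was not tested. An N count is the smallest that a direct match to the GRCm38 ends of Trav16n and Traj42, or of the other clonotypes' segments, allows. Reverse complements of those ends count as N bases. The N counts were not tested.

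The loops recurred between libraries. A CDR3 alpha amino acid sequence found in over 1 library was carried by 65.5%, 53.8%, 75.0% and 85.7% of the TRAV16-TRAJ42 clonotypes of the 2 NOD and then the 2 Tet2KO NOD libraries. Among all other clonotypes the shares were 19.5%, 25.0%, 25.3% and 26.7%. Every library was higher for TRAV16-TRAJ42, by 45.9 ± 12.6 percentage points on average (SD, n = 4 libraries). The V and J that chose the cells spell most of the loop, and the other clonotypes span all pairings, so this is a description. Clonotypes of TRAV16 with another TRAJ had 22.9%, 32.6%, 28.9% and 29.8%, and those of TRAJ42 with another TRAV had 8.22%, 15.2%, 0% and 7.41%.

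A smaller set had 18 residues, with 6 clonotypes and 48 cells. Of these, 3 kept the whole germline end of both segments with 4 N bases between, and all 3 paired with TRBV16. One is the EGI loop shown above, and the other two are printed to show the shared frame, again with N bases in capitals.

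EGH loop, 18 residues: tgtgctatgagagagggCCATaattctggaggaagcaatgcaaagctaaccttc

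EGL loop, 18 residues: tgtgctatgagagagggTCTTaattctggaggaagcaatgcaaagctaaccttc

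The EGI loop was in 34 cells of NOD 2, the EGH loop in 8 cells of NOD 2 and the EGL loop in 3 cells of NOD 1. The capitals of the EGI loop are also the reverse complement of the first bases of Traj42. Some of those in the EGH and EGL loops likewise reverse a germline end. The beta loops beside the EGH and EGL loops, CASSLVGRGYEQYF and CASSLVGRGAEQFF, share their first 9 residues. Of all 6 TRBV16 clonotypes, 0 had the short motif. The other 18-residue loops were in clonotypes of 1 cell, with TRBV2, TRBV3 and TRBV13-2. The TRBV2 and TRBV13-2 cells had 1 TRA UMI each, and the TRBV3 cell carried a second alpha chain. These subsets were noticed in the data and are a description.

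The beta chain was not used to choose the cells, so its segments were compared with those of all other clonotypes of the same libraries. TRBV13-3, a member of the TRBV13 family of V beta segments (chr6:41130147-41130585, plus strand), was the partner in 26 of 57 clonotypes. Its share was 37.9%, 53.8%, 50.0% and 57.1% in the 2 NOD and then the 2 Tet2KO NOD libraries, against 5.16%, 5.12%, 4.94% and 4.67% of the other clonotypes. The groups did not overlap, and both genotypes were alike in direction. Over all libraries the share was 45.6% against 5.05%, a log2 fold of 3.17 (SE 0.43; edgeR quasi-likelihood test with library as a block, adjusted p = 1.34e-09). Of the 33 TRBV and TRBJ segments tested, 3 passed (9.09%). The test counts clonotypes, which share a library, and the fitted dispersion was at its floor, so its error is close to that of counting alone.

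TRBJ2-7 (chr6:41543810-41543856, plus strand), whose residues give the loop end YEQYF, was also in 26 of 57 clonotypes. It was in 37.9%, 46.2%, 62.5% and 57.1% of the clonotypes of the 2 NOD and then the 2 Tet2KO NOD libraries, against 19.9%, 22.4%, 19.1% and 19.9% of the others. The log2 fold was 1.16 (SE 0.24; edgeR, adjusted p = 0.0034). The call was lost with TMM factors (log2 fold 0.40, adjusted p = 0.315) and with DESeq2 (log2 fold 0.56, adjusted p = 0.213), and over 17 alternatives the adjusted p ran from 0.0011 to 0.315. Both segments were joined in 15 clonotypes (26.3%), against 0.997% of the others.

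TRBJ2-5 (chr6:41543453-41543501, plus strand) was in 0 of 57 clonotypes and in 12.5% of the others. A count of 0 allows a share of up to 5.26%, so it was at least 2.38-fold lower (edgeR, adjusted p = 0.0027). Without NOD 1 the adjusted p was 0.0857, and over the alternatives it ran from 1.51e-05 to that value. TRBJ1-2, TRBJ1-5 and TRBJ2-2 were at 0 too, but were in only 5.18%, 2.57% and 5.08% of the others, which 57 clonotypes cannot tell from 0.

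Among the other TRBV segments named for their number of clonotypes, none passed the test. TRBV3 was in 7 clonotypes and 21 cells, with 6.90%, 7.69%, 25.0% and 28.6% of the clonotypes of the 2 NOD and then the 2 Tet2KO NOD libraries against 4.40% to 5.16% of the others (edgeR, adjusted p = 0.160). TRBV16 was in 6 clonotypes and 61 cells, 44 of them in NOD 2 and 14 in Tet2KO NOD 2 (log2 fold 0.62, adjusted p = 0.473). TRBV10 was in 4 clonotypes and 53 cells, all in NOD 1 (log2 fold 1.41, adjusted p = 0.294). Trbv10 is annotated as a V pseudogene in GENCODE for GRCm38, while the deposited contigs that carry this name are productive. TRBV13-1 and TRBV15 were in 3 clonotypes each, all of 1 cell.

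The segments nearest above the threshold were not among those named for their number of clonotypes, and were also lower. The joined name TRBV12-2+TRBV13-2 was the partner in 1 clonotype against 11.6% of the others (log2 fold -2.72, edgeR, adjusted p = 0.0527). That clonotype is the glutamate-loop cell of uncertain pairing described above. TRBV5 was in 1 clonotype against 10.4% (log2 fold -2.56, edgeR, adjusted p = 0.0672). TRBV1 was in 0 against 6.81% (edgeR, adjusted p = 0.0672). Of the TRBJ segments that did not pass, TRBJ2-1 was in 9 clonotypes, TRBJ1-1 in 6, and TRBJ1-3 and TRBJ2-4 in 5 each. Their log2 folds were 0.66, 0.15, 0.77 and 0.17, and without NOD 1 that of TRBJ2-1 was 0.0022.

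**Figure D2:**
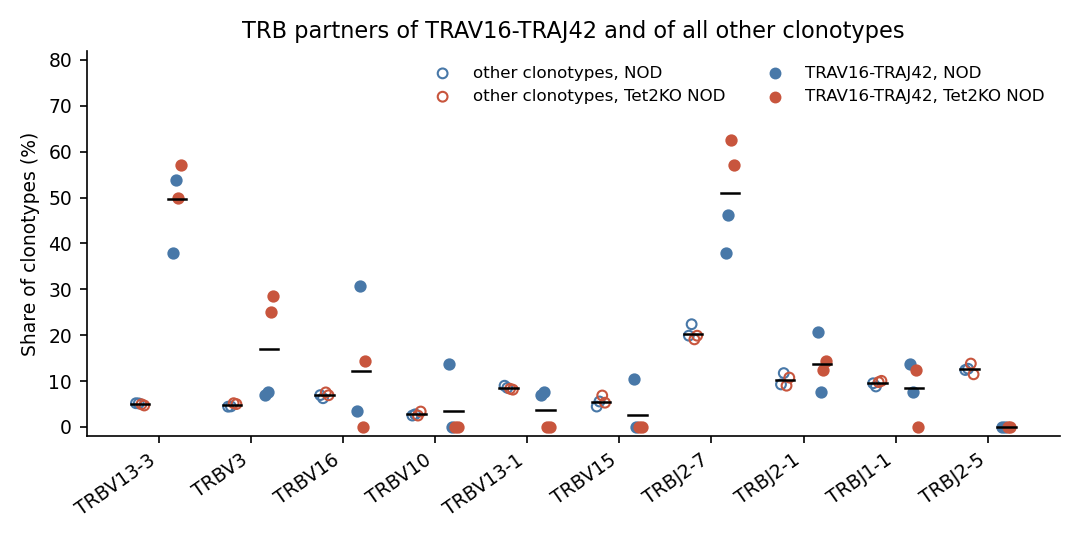
Share of clonotypes (%) that use each TRB segment, with 1 point per library, open circles for all other clonotypes and filled circles for TRAV16-TRAJ42, blue for NOD and red for Tet2KO NOD, and a line at the mean of the 4 libraries. TRBV13-3 stands at 37.9% to 57.1% where the others stand near 5.05%, and TRBJ2-5 stands at 0 in all 4 libraries.

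TRBV13-3 was also counted beside each of the alpha segments in other pairings. Clonotypes of TRAV16 with another TRAJ (338 clonotypes, 459 cells) used TRBV13-3 in 6.80%, between 3.51% and 8.92% by library. Those of TRAJ42 with another TRAV (172 clonotypes, 238 cells) used it in 6.40%, between 0 and 11.5% by library. All library values of both lay below the lowest TRAV16-TRAJ42 library, and the difference between the pairings was not tested.

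The beta loops were short. Their mean length was 12.9, 13.5, 13.4 and 13.1 residues in the 2 NOD and then the 2 Tet2KO NOD libraries, against 14.0 in the others of each library. The difference averaged -0.78 ± 0.26 residues (SD, n = 4 libraries) and was above 0 in 0 of 4 libraries (two-sided exact sign-flip permutation, p = 0.125, the smallest that 4 libraries allow). Loops of 12 residues were 35.1% of TRAV16-TRAJ42 clonotypes and 10.7% of the others. With TRBV13-3 the mean was 12.5 residues, and with TRBV16 14.3.

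The 57 clonotypes had 51 different CDR3 beta amino acid sequences, and 3 of these were in more than 1 clonotype. One loop, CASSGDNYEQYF of TRBV13-3 with TRBJ2-7, was found in all 4 libraries, in 3, 4, 3 and 4 cells of the 2 NOD and then the 2 Tet2KO NOD libraries. Its 5 clonotypes had 5 different nucleotide sequences, printed to show that no 2 clonotypes shared the same beta rearrangement.

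NOD 1, 2 cells: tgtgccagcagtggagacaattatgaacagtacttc

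NOD 1, 1 cell: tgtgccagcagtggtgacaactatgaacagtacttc

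NOD 2, 4 cells: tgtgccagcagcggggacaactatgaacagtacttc

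Tet2KO NOD 1, 3 cells: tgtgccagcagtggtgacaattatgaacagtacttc

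Tet2KO NOD 2, 4 cells: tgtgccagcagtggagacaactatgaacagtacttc

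The alpha loop beside it was the asparagine loop in NOD 1 and the aspartate loop in the other 3 libraries. The single-cell clonotype of NOD 1 also carried a second alpha chain, TRAV5-4 with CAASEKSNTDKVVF. A further 9 cells of NOD 1 had the same beta nucleotides as a TRAV16-TRAJ42 cell and that TRAV5-4 chain as the alpha of most UMIs, and 7 of those 9 carried 2 alpha chains.

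Other beta loops differed from each other by 1 residue, between libraries or within a library. The TRBV3 loops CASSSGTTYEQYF (NOD 1), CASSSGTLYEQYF and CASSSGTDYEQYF (Tet2KO NOD 1) and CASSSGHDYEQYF (Tet2KO NOD 2) each differed from at least 1 of the others at 1 position. The alpha loops beside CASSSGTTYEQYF and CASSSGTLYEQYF had alanine at position 5 and those beside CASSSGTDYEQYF and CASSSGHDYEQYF had valine. No other clonotype had either alpha loop. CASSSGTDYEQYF was also in 1 other clonotype, of 1 cell, with a TRAV8N-2 alpha chain. The TRBV13-3 loops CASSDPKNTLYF (NOD 1) and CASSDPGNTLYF (NOD 2) differed at position 7, both with the aspartate loop. TRBV15 gave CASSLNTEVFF in 2 clonotypes and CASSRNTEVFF in 1, all of NOD 1 and all with the asparagine loop.

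More of the clonotypes had 2 or more cells than among the other clonotypes, but the largest clones of the libraries were elsewhere. Of the 57 clonotypes 27 were single cells, and 10 clonotypes of 10 or more cells held 211 of the 296 cells. Clonotypes of 2 or more cells were 44.8%, 69.2%, 37.5% and 71.4% in the 2 NOD and then the 2 Tet2KO NOD libraries, against 13.2%, 12.7%, 18.7% and 14.4% of the others. All 4 libraries were higher, by 41.0 ± 19.0 percentage points on average (SD, n = 4 libraries; exact sign-flip permutation, p = 0.125, the smallest possible). Of 136 TRAV family and TRAJ pairings with enough clonotypes, 6 (4.41%) lay above the rest of their library in all 4 libraries. TRAV16-TRAJ42 ranked first of the 136 in this share, in cells and in cells per clonotype (5.19 over all libraries), and rank 3 in clonotypes. That mean rests on NOD: by library it was 5.55, 7.31, 1.62 and 3.86, against 1.52, 1.42, 1.79 and 1.38 in the other clonotypes, so Tet2KO NOD 1 lay lower. The largest clone had 33, 34, 3 and 14 cells, and the largest of the other clonotypes 76, 41, 43 and 22, so it was smaller in all 4 libraries.

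The pairings that share a segment with it were counted in the same way. Clonotypes of 2 or more cells were 14.2% for TRAV16 with another TRAJ and 13.4% for TRAJ42 with another TRAV. These had 1.36 and 1.38 cells per clonotype over all libraries.

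**Figure D3:**
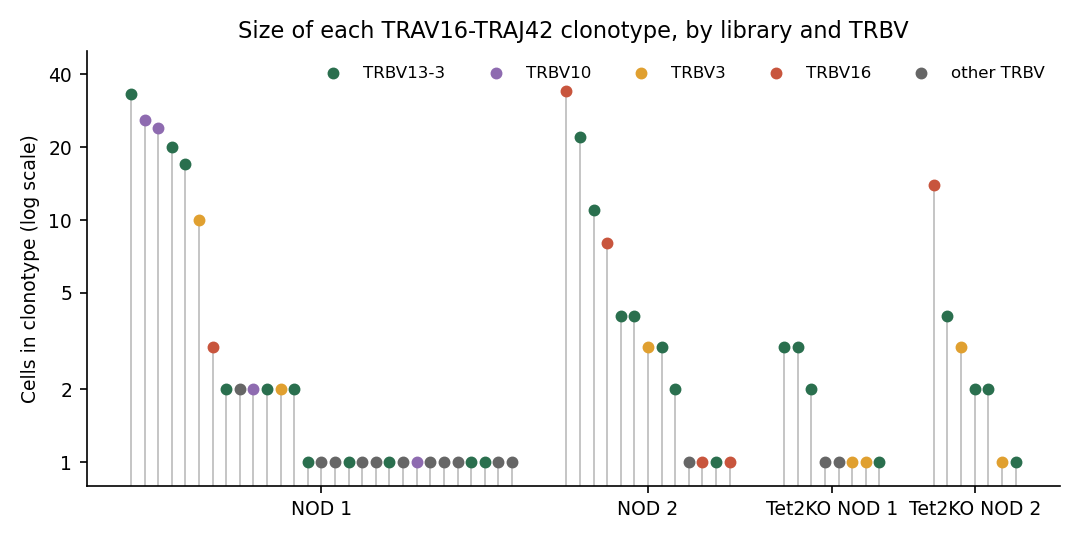
Number of cells (log scale) in each of the 57 TRAV16-TRAJ42 clonotypes, ordered by size within each of the 4 libraries and coloured by TRBV segment. NOD 1 and NOD 2 reach 33 and 34 cells, Tet2KO NOD 1 reaches 3 and Tet2KO NOD 2 reaches 14, with TRBV13-3, TRBV10 and TRBV16 among the largest.

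The largest clone was in NOD 2, with 34 cells, TRBV16 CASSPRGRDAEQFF and the EGI alpha loop. It made up 35.8% of the TRAV16-TRAJ42 cells of that library. The next was in NOD 1, with 33 cells, TRBV13-3 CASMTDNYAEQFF and the glutamate loop. Both TRBV10 clones that followed were in NOD 1, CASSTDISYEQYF with histidine at position 5 of the alpha loop (26 cells) and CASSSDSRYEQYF with the glutamate loop (24 cells).

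TRBV13-3 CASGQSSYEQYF with the aspartate loop, 22 cells of NOD 2 and 2 of Tet2KO NOD 2, was the only clonotype found in 2 libraries, and both libraries carry the set number 2. Its 2 cells in Tet2KO NOD 2 had 31380 and 56114 TRB reads, none of the 24 barcodes was called in another library, and contigs on the same barcodes elsewhere had at most 236 reads. NOD 1 also held TRBV13-3 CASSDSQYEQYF (20 cells) with the same alpha loop. The largest clone of Tet2KO NOD 2 was TRBV16 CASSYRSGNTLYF with the EGR loop (14 cells). In Tet2KO NOD 1 the largest had 3 cells each, TRBV13-3 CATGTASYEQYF and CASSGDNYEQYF. The beta junctions of the 6 largest and of the largest of Tet2KO NOD 2 are printed to identify them.

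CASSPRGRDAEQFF, TRBV16: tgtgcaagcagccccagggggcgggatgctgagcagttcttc

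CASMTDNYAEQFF, TRBV13-3: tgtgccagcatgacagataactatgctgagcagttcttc

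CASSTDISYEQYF, TRBV10: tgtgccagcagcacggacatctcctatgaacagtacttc

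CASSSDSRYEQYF, TRBV10: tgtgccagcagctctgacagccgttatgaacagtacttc

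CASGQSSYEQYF, TRBV13-3: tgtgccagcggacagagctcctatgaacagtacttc

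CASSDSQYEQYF, TRBV13-3: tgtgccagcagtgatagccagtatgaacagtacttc

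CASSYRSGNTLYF, TRBV16: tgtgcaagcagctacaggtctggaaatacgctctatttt

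The 34-cell clone of NOD 2 had a second alpha chain, TRAV9-1 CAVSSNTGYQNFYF, in 23 of its cells. A further 21 cells of NOD 2 had the same beta chain and that TRAV9-1 chain as the alpha of most UMIs, 19 of them with 2 alpha chains, so the rule counted 34 of 55 cells with this beta chain. Outside this clone 4 of 262 TRAV16-TRAJ42 cells carried a second alpha chain. Over all libraries 339 called cells carried any TRAV16-TRAJ42 chain. Of the 43 that were not counted, 30 had another alpha chain of more UMIs, 11 had over 1 beta chain and 2 had none.

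The cells' receptor transcripts were deep. The median TRB UMI count was 19, 22, 16 and 22 in the 2 NOD and then the 2 Tet2KO NOD libraries, against 11, 13, 9 and 11 in all other cells. Within clonotypes of 2 or more cells it was 19, 22, 16 and 25 against 14, 19, 12 and 15. All 4 libraries were higher in both comparisons, and no test was made. The median TRA UMI count was 8, 7, 5 and 8 against 6 in the others of each library, so Tet2KO NOD 1 was not higher there. Some clonotypes of 1 cell outside the short motif rested on 1 TRA UMI.

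Between the genotypes, the share of paired cells was 2.89% in NOD 1 (161 cells) and 3.84% in NOD 2 (95 cells), and 0.810% in Tet2KO NOD 1 (13 cells) and 1.94% in Tet2KO NOD 2 (27 cells). The 95% Wilson intervals of the first pair reach down to 2.48% and 3.15%, and those of the second reach up to 1.38% and 2.81%, for counting error alone. The mean was 3.37 ± 0.67% for NOD and 1.38 ± 0.80% for Tet2KO NOD (SD, 2 libraries each), a difference of -1.99 percentage points (two-sided exact permutation, p = 0.333, the smallest that 2 against 2 allow). Fewer such cells and less captured receptor RNA per cell cannot be told apart from call counts alone. Of the 136 pairings 33 (24.3%) were lower in both Tet2KO NOD libraries without overlap, and 12 (8.82%) were higher. TRAV16-TRAJ42 ranked first of the 136 in its fall in percentage points, and it also had the highest share to fall from.

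Counted as clonotypes, the share did not separate the genotypes. It was 0.807% in NOD 1 (29 of 3594) and 0.768% in NOD 2 (13 of 1693), and 0.890% in Tet2KO NOD 1 (8 of 899) and 0.705% in Tet2KO NOD 2 (7 of 993). The difference of 0.010 percentage points gave p = 1 in the exact permutation test (n = 2 each). Across the 136 pairings edgeR called 0 on clonotypes at an adjusted p under 0.05 (0%), with 2 at an unadjusted p under 0.05, and DESeq2 called 0. For TRAV16-TRAJ42 the log2 fold was 0.00 (SE 0.46; edgeR, adjusted p = 0.997). With each cell counted once it was -1.29 (adjusted p = 0.762), and over 18 alternatives the adjusted p was between that value and 0.997.

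**Figure D4:**
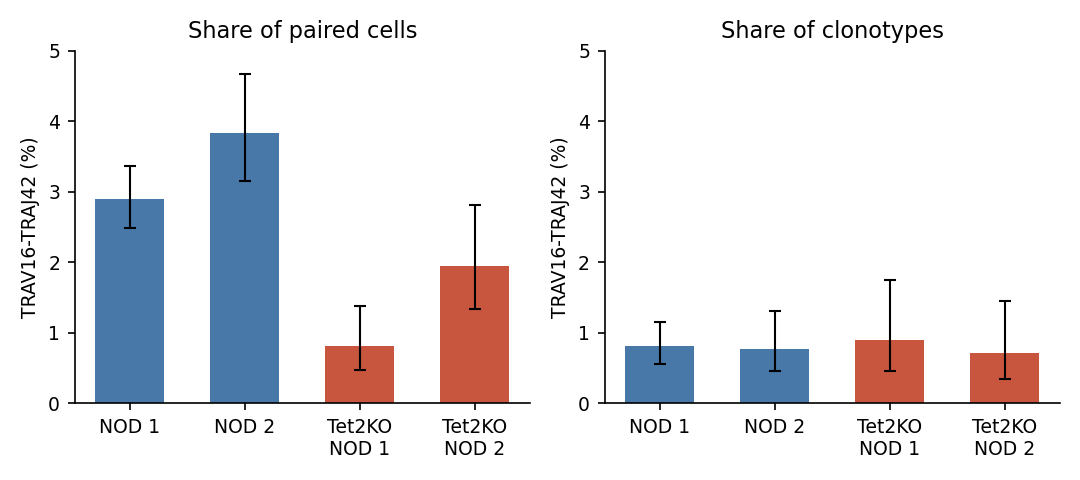
TRAV16-TRAJ42 as a share (%) of paired cells on the left and of clonotypes on the right, 1 bar per library with its 95% Wilson interval, blue for NOD and red for Tet2KO NOD. The shares of cells run from 0.810% to 3.84% with both NOD bars higher, and the shares of clonotypes lie between 0.705% and 0.890%.

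The cells per clonotype differed in the same direction as the cells. The means by library, given above, were both higher in NOD. The difference was -3.69 cells per clonotype (exact permutation, n = 2 each, p = 0.333, the smallest possible). Clonotypes of 10 or more cells numbered 6, 3, 0 and 1. The libraries differ in size, and a smaller sample shows smaller clones. With every library thinned to 1392 cells the means were 3.13, 5.01, 1.53 and 3.86, so NOD 1 then lay below Tet2KO NOD 2 and the genotypes overlapped. The share of clonotypes with 2 or more cells, given above, overlapped between the genotypes, with means of 57.0% for NOD and 54.5% for Tet2KO NOD (exact permutation over 2 libraries each, p = 1).

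**Figure D5:**
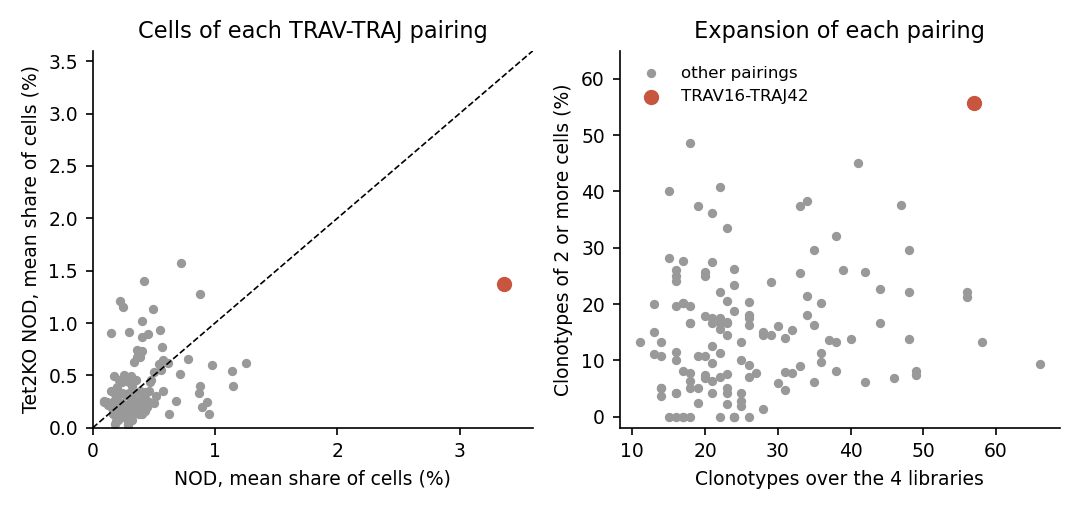
Each of 136 TRAV family and TRAJ pairings as a point, with the mean share of cells (%) in NOD against Tet2KO NOD on the left (dashed line, equal shares), and the number of clonotypes against the mean share of clonotypes with 2 or more cells (%) on the right. TRAV16-TRAJ42, in red, lies at 3.37% against 1.38% on the left and highest on the right, at 55.7%.

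The shares of cells were also read by partner and by loop. TRBV13-3 cells made up 1.46% and 1.90% of paired cells in NOD 1 and NOD 2, and 0.561% and 0.647% in Tet2KO NOD 1 and Tet2KO NOD 2. Cells of the short motif made up 2.70% and 2.02% against 0.561% and 0.862%. TRBV16 cells were at 0.0539% and 1.78% in the NOD libraries and at 0 and 1.01% in the Tet2KO NOD libraries. The genotypes did not overlap for the first 2 sets and overlapped for TRBV16. Of the 136 pairings, 33 (24.3%) were lower in Tet2KO NOD without overlap. Both sets are parts of the TRAV16-TRAJ42 cells, which as a whole did not overlap either. They share clonotypes, since 23 of the 26 TRBV13-3 clonotypes had the short motif. In the Tet2KO NOD libraries TRBV13-3 held 9 and 9 cells, and the short motif 9 and 12. These subsets were not tested.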

How the data were processed

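The deposited tables list assembled receptor contigs per barcode, with read and UMI counts as whole numbers, not normalized. Per the submitters' processing notes the authors used Cell Ranger 7.0.1 and GRCm38 (mm10). Productive, full-length, high-confidence contigs of called cells were kept. Cells with over 1 TRB were left out, which removes some doublets. No doublet caller was run, so doublets with 1 TRB remain. Pools of mice were the replicates. Nothing else says how the pools differ, so the exact permutation and sign-flip p-values measure only the spread between libraries. For the segments the edgeR dispersion was at its floor, so those p-values reflect little more than counting error. Genotypes were compared by exact permutation over libraries, and TRAV16-TRAJ42 against other clonotypes by exact sign-flip, whose p is not given for alpha loop length and recurrence, since the choice of V and J bears on both. Segments (33, at least 10 clonotypes) and pairings (136, at least 5 clonotypes in at least 2 libraries) were tested with edgeR 4.0.16 in R 4.3.3, checked on simulated data, with Benjamini-Hochberg adjustment over all, on clonotype counts, without normalization factors. DESeq2 1.42.0 was an alternative. N bases were counted against GENCODE transcripts of GRCm38, not the NOD germline.

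Named were the segments passing the test, the 6 TRBV and 4 TRBJ (ties kept) with most clonotypes, the 6 commonest alpha loops, the 6 largest clones, the largest of each library, shared clonotypes, and beta loops in over 1 clonotype. The cells, lists and tests were chosen with earlier results of these data known. Subsets named after the sequences were seen are marked so. Set numbers 1 and 2 are shared by both genotypes in the labels. Same-numbered libraries deviated with a correlation of -0.106 over 136 pairings, and the numbers were not taken as pairs. Many pairings held few clonotypes in a library, so this correlation cannot tell whether the numbers mark pairs.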

Additional observations from a re-analysis of the deposited data

How the results depend on the processing

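Library size, pools of 4 to 6 mice and 57 clonotypes limit what can be read: exact permutation of 2 libraries against 2 cannot go below p = 0.333, the exact sign-flip over 4 cannot go below p = 0.125, and intervals cover counting error only. Of 166 alternative values of the main results, 145 kept their direction, or for counts stayed within 1.5 times. Some of these could not change, such as the share of cells when only the definition of a clone was altered. The alternatives that left out barcodes called in over 1 library and that crossed the set numbers were chosen after seeing the data. Leaving out 1 library at a time gave differences in the share of cells between -2.56 and -1.43 percentage points, and that in cells per clonotype from -4.80 to -2.57. Thinned to the smallest library the latter was -1.38. TRBV13-3 passed the edgeR test in all 17 alternatives, TRBJ2-5 in 16 and TRBJ2-7 in 15. TRAV16-TRAJ42 stayed lower in cells without overlap and first in expansion under all 12 choices of cells and clones. For the overlap, some of these choices could not alter the outcome. Leaving out a library cannot create an overlap, and the definition of a clone does not enter the share of cells. The causes of the changes below were not tested.

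The difference in the share of clonotypes, 0.010 points, took values of -0.082 to 0.102 with 1 library left out. It was -0.0098 with cells of over 1 TRB kept, -0.088 with only cells of 1 TRA, -0.050 with at least 2 UMIs per chain and -0.0040 without clonotypes in over 1 library. For expanded clonotypes the genotype difference took values of -19.5 to 14.4 points with 1 library left out, and was 4.41 with only cells of 1 TRA and 1.79 with at least 2 UMIs per chain. Taking the set number as replicate block, the within-set differences for sets 1 and 2 were -2.08 and -1.90 points of cells, 0.083 and -0.063 points of clonotypes, -7.33 and 2.20 points of expanded clonotypes, and -3.93 and -3.45 cells per clonotype. The block and its crossed form each gave 0 calls over the pairings, and the partner test without its library block gave 3, so they changed no call.

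Partner calls numbered 21 with each cell counted once and 10 with TMM factors, against 3, and 2 to 4 with 1 library left out. Pairings without overlap numbered 26 to 101 with 1 library left out, and pairings above the rest 4 to 19. Log2 folds of segments that did not pass changed sign as follows. TRBV16 was at -0.63 without NOD 2, -0.15 with TMM factors and -0.077 with DESeq2, and at most 1.40 without NOD 1. TRBV10 was at -7.08 without NOD 1 (a count of 0, so no bound), -0.36 with each cell counted once and -0.022 with DESeq2, and at most 1.80 without NOD 2. TRBV15 was at -8.13 without NOD 1 (a count of 0), -0.10 with cells of over 1 TRB kept, -0.057 by any TRA, -0.48 with clones by amino acids, -3.10 with each cell counted once, -0.74 with TMM factors and -0.73 with DESeq2, and at most 0.44 without NOD 2. TRBJ2-1 was at 0.0022 without NOD 1, and turned to -0.11 with TMM factors and -0.17 with DESeq2. TRBJ1-1 was at -0.39 without NOD 1, -0.014 with at least 2 UMIs per chain, -0.05 with clones by amino acids, -1.18 with each cell counted once, -0.61 with TMM factors and -0.62 with DESeq2, and at most 0.36 without Tet2KO NOD 2. TRBJ1-3 was at -0.076 with each cell counted once. TRBJ2-4 was at -0.095 without NOD 1, -0.032 with at least 2 UMIs per chain, -0.78 with each cell counted once, -0.60 with TMM factors and -0.50 with DESeq2, and at most 0.43 without Tet2KO NOD 1. The TRAV16-TRAJ42 pairing itself, at 0.00, was at -0.02 without NOD 2, -0.17 without Tet2KO NOD 1, -0.045 with cells of over 1 TRB kept, -0.15 with only cells of 1 TRA, -0.0057 by any TRA, -0.11 with at least 2 UMIs per chain, -0.044 without clonotypes in over 1 library, -1.29 with each cell counted once and -0.0061 with the crossed block, and at most 0.17 without Tet2KO NOD 2.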
